A study of Mus musculus with 4 samples.

Results

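The MHC class II genes of tumour endothelium were followed here through 7 genes chosen by name: the chain genes H2-Aa, H2-Ab1 and H2-Eb1, the invariant chain gene Cd74, the peptide exchange genes H2-DMa and H2-DMb1, and the regulator Ciita. All 7 of them had a row among the 55367 gene names of the count table, and all 7 passed the filter on low counts. Endothelial cells had been sorted as CD31+CD45- cells from Liberase-digested subcutaneous KPC tumours, which grow from a mouse pancreatic cancer line injected into the flank of C57BL/6 mice. Each mouse had received an intraperitoneal dose of either control Rat IgG or anti-CD93 antibody, which binds a surface receptor of endothelium, with cells isolated 48 hours later. Total RNA was sequenced in 2 libraries per group, called control IgG 1 and 2 and anti-CD93 1 and 2 below. The labels give neither the age of the mice, nor the antibody clone, nor whether a library held 1 mouse or several, so the spread behind each p-value may be technical.

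Class II molecules present peptides from the endosomal pathway to CD4+ T cells. An alpha and a beta chain form the groove, the invariant chain encoded by Cd74 fills it until the complex reaches the endosome, and the H2-DM heterodimer then helps antigenic peptide replace the remnant of the invariant chain. Transcription depends on CIITA, a coactivator that does not bind DNA itself but assembles on RFX, NF-Y and CREB at a conserved promoter module. Dendritic cells, B cells and macrophages read these genes constitutively, while endothelium takes them up under interferon-gamma, in part through IRF1. C57BL/6 mice carry a defective H2-Ea gene, so H2-Aa with H2-Ab1 makes the only complete surface dimer and the H2-Eb1 chain has no partner.

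Promoter sequences are shown because transcription of this family is known to depend on that module. RefSeq promoters of GRCm38.p6, 250 bases before to 50 bases after a start, were matched for 4 of the 7 members, H2-Aa, H2-Eb1, H2-DMa and H2-DMb1. The letters searched were GNAAC, the core of the box bound by RFX, followed on the same strand by ATTGG, the reversed CCAAT letters bound by NF-Y, with 25 to 40 bases between their first letters. The 2 words cannot overlap at that spacing, and both strands were read. The pair occurred in 3 of these 4 genes, against 2.67% of all 32851 promoters of this length, while ATTGG alone occurred on either strand in 37.4%. The 130 bases before each of the 3 starts follow, 5′ to 3′ on the gene's strand, with the 2 words in capitals. H2-Aa lies on the minus strand (chr17:34287824-34287953), and H2-Eb1 (chr17:34305737-34305866) and H2-DMb1 (chr17:34153061-34153190) on the plus strand.
H2-Aa: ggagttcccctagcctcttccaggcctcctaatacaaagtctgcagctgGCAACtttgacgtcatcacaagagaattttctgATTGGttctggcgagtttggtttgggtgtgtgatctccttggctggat
H2-Eb1: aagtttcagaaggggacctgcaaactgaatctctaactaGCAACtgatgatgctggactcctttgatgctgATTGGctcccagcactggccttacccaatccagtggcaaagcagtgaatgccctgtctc
H2-DMb1: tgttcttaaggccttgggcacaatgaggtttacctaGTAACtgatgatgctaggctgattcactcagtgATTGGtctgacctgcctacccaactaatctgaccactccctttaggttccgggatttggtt
The words stood 33 bases apart in H2-Aa and H2-DMb1 and 32 in H2-Eb1, first letter to first letter. Neither of the 2 RefSeq promoters of H2-DMa held the pair, nor did that of H2-DMb2, while those of H2-Oa, H2-Ob and H2-Eb2 did. A match of letters is a description and not evidence of binding.

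The libraries held 9364294 (control IgG 2) to 17813993 (anti-CD93 1) reads assigned to genes. Control IgG 2 stood apart from the others. It had the most detected genes, 27718 against 23796 to 25430, and its log2 levels over all tested genes correlated at 0.945 to 0.947 with the other libraries, which correlated at 0.977 to 0.983 with each other. In it 1999 olfactory and vomeronasal receptor genes, known from sensory neurons, summed to 360 CPM, against 52.0 to 56.6 elsewhere. The fold changes of the members and of the main lists are therefore also given without this library. Of the sort markers, Pecam1, the gene of CD31, was at 1685, 1872, 1661 and 1663 CPM in control IgG 1, control IgG 2, anti-CD93 1 and anti-CD93 2. Ptprc, the gene of CD45, was at 2.37, 4.71, 5.08 and 2.32 CPM in the same order. CPM are counts scaled to the assigned reads of a library after TMM normalization, and values are given in this order of libraries throughout.

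Class II transcripts were present in all 4 libraries at low level, and none of the 7 genes passed the test of treatment. For 6 of the 7 genes both anti-CD93 libraries lay between control IgG 1, the lowest, and control IgG 2, the highest. Among all 16945 tested genes 11.9% had this order, and 23.7% had both anti-CD93 libraries between the controls in either order. The 7 genes summed to 72.9, 217, 97.5 and 110 CPM. With edgeR's quasi-likelihood test over all genes, 0 of the 7 passed an adjusted p of 0.05 (0.00% of tested genes did), and 0 of the 7 had an unadjusted p under 0.05 (4.49% of tested genes did). DESeq2 and limma-voom also called 0 of the 7. All 7 fitted fold changes were below 0, as were 50.9% of those tested, with a median log2 change of -0.49 against -0.0092 over all tested genes. In this bulk RNA, a difference between libraries in the share of class II cells and one in class II RNA per cell cannot be told apart.

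**Figure D1:**
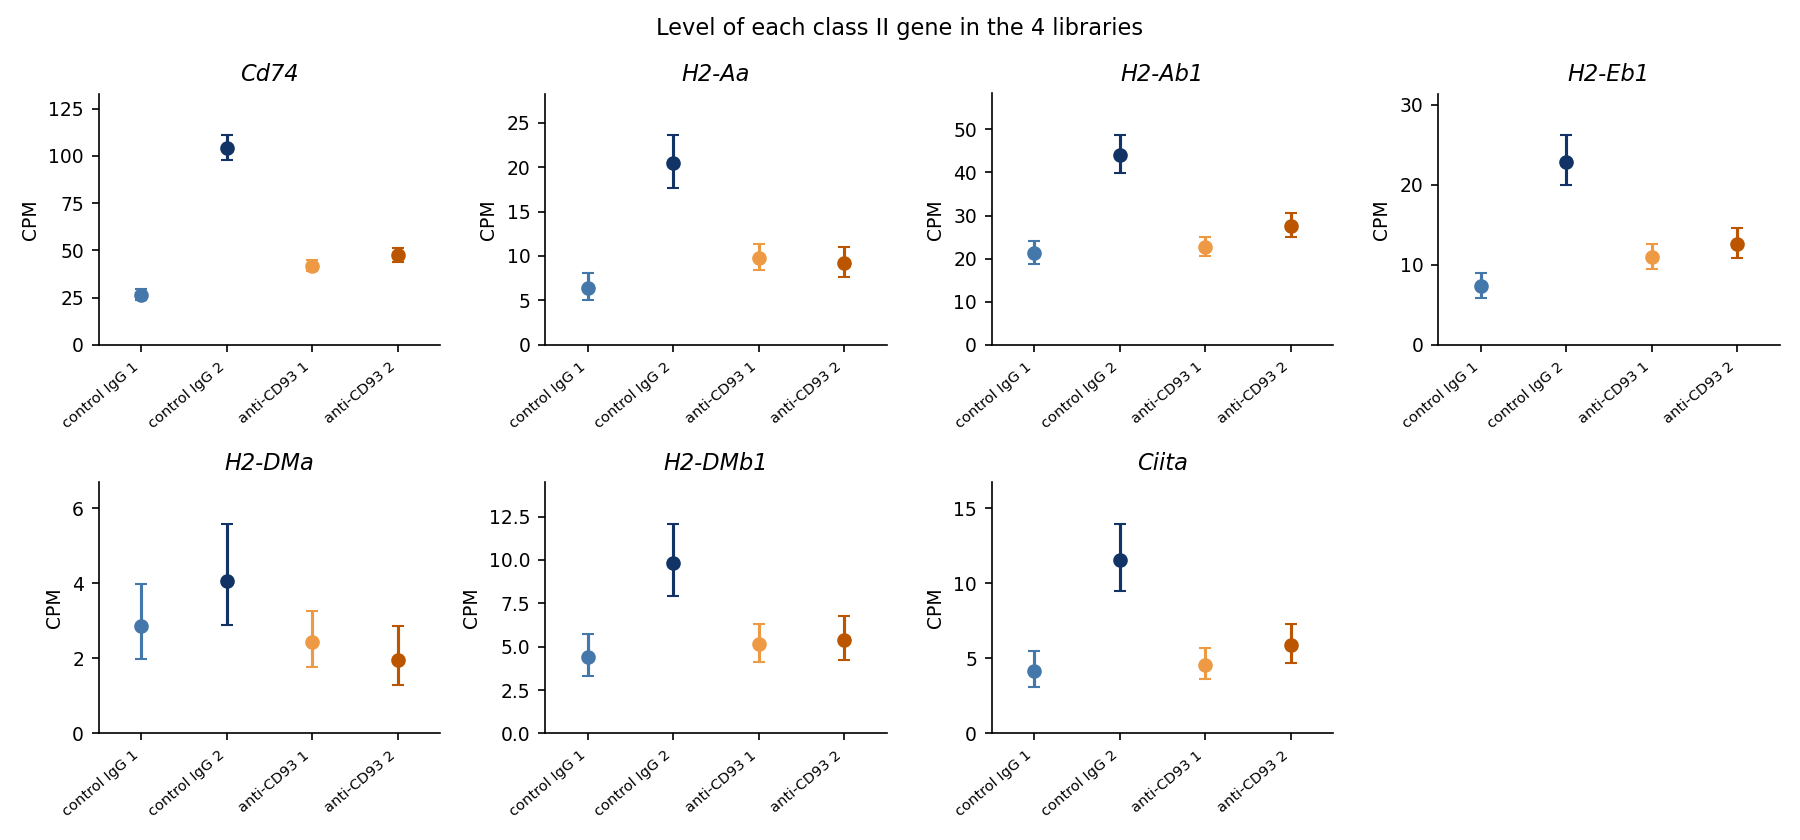
Level of each of the 7 class II genes in CPM (y axis, from 0, a separate scale per gene) in each library (x axis). Points are single libraries and bars are exact 95% Poisson intervals, which cover counting error only; control IgG 2 is the highest point in every panel, and the anti-CD93 points lie between the controls in all panels but that of H2-DMa.

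The invariant chain gene Cd74 (chromosome 18, 60803848 to 60812652, GRCm38) had the most reads of the 7, with 323, 972, 740 and 652. Its level was 26.3, 104, 41.8 and 47.4 CPM. The anti-CD93 libraries were close to each other and well inside the gap that the controls left between them. The control mean was 65.2 ± 54.9 CPM and the anti-CD93 mean 44.6 ± 3.93 CPM (SD, n = 2), a log2 fold change of -0.54 (SE 0.51, adjusted p = 0.831 by edgeR). Counting error was small beside this spread, with exact 95% Poisson intervals of 23.6 to 29.4 CPM in control IgG 1 and 97.6 to 111 CPM in control IgG 2. Mates of a pair were counted singly, so these intervals are too narrow.

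H2-Ab1 (chromosome 17, 34257689 to 34269419) encodes the beta chain of the I-A dimer and was at 21.4, 44.1, 22.8 and 27.7 CPM. Control IgG 1 and anti-CD93 1 were nearly level, and control IgG 2 alone was high. The log2 fold change was -0.37 (SE 0.33, adjusted p = 0.823 by edgeR). Its partner H2-Aa (chromosome 17, 34282744 to 34287823), the alpha chain, was at 6.44, 20.4, 9.77 and 9.23 CPM, with a log2 fold change of -0.49 (SE 0.48, adjusted p = 0.834 by edgeR). Here both anti-CD93 libraries lay above control IgG 1 and far below control IgG 2. H2-Eb1 (chromosome 17, 34305867 to 34316674), the I-E beta chain without a partner in this strain, was at 7.34, 22.9, 11.0 and 12.6 CPM. It repeated the order of H2-Aa by library except that anti-CD93 2 was above anti-CD93 1 (log2 fold change -0.35, SE 0.47, adjusted p = 0.873 by edgeR).

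The DM genes were at fewer CPM than H2-Ab1, H2-Aa and H2-Eb1 in every library, before scaling by length. Per kb, H2-DMb1 was above H2-Aa in every library. H2-DMb1 (chromosome 17, 34153072 to 34160230), the DM beta chain, was at 4.40, 9.85, 5.14 and 5.38 CPM, again with control IgG 2 alone at a high level (log2 fold change -0.43, SE 0.43, adjusted p = 0.835 by edgeR). Its value may be uncertain, because 22.7% of the 50-base words of its transcripts also occur in those of the neighbouring copy H2-DMb2. Mates were 150 bases long, and how many reads could come from either copy was not tested. H2-DMa (chromosome 17, 34119541 to 34139101), the DM alpha chain, was at 2.86, 4.07, 2.43 and 1.96 CPM, from 35, 38, 43 and 27 reads. It was the only member whose groups did not overlap, as in 39.8% of tested genes, with both anti-CD93 libraries below both controls, as in 19.7%. Its log2 fold change of -0.64 (SE 0.45) had an adjusted p of 0.812 by edgeR. The exact 95% Poisson intervals were 1.99 to 3.97 CPM in control IgG 1, 2.88 to 5.58 in control IgG 2, 1.76 to 3.27 in anti-CD93 1 and 1.29 to 2.85 in anti-CD93 2, so that of the 4 pairs across the groups only control IgG 2 and anti-CD93 2 did not overlap. Of its exon bases, 10.4% also lie in exons of Brd2 on the opposite strand, and reads were counted without strand.

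The regulator Ciita (chromosome 16, 10480059 to 10528418) was at 4.16, 11.6, 4.58 and 5.88 CPM, from 51, 108, 81 and 81 reads. It was lowest in control IgG 1 and highest in control IgG 2, as were the other members except H2-DMa. The log2 fold change was -0.58 (SE 0.49, adjusted p = 0.818 by edgeR). Exons of Dexi on the opposite strand share 3.45% of its exon bases. The counts are per gene, so the alternative promoters of Ciita, which differ between cell types, were not analysed here.

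For 6 of the 7 genes the sign of the comparison turned on which control library entered. This follows from their order, with both anti-CD93 libraries between the controls, and is no separate result. Without control IgG 2, 8573 of the 16945 tested genes were above 0. Without control IgG 2, the fold change of 6 members became positive, from 0.23 for H2-Ab1 to 0.76 for Cd74 on the log2 scale, and none of the 7 passed (0.0767% of tested genes did, and 0.0177% as lower). Cd74 had an adjusted p of 0.179 by edgeR in that fit, and H2-DMa stayed negative at -0.37. Without control IgG 1, when control IgG 2 alone stood for its group, 6 members passed as lower, from -0.81 for H2-Ab1 to -1.22 for Cd74, and H2-DMa at -0.88 did not. In the latter fit 26.8% of all tested genes passed, and 12.8% passed as lower. The adjusted p values of the 6 ran from 3.12e-04 for Cd74 to 0.0427 for H2-DMb1 by edgeR. Leaving out anti-CD93 1 or anti-CD93 2 kept all 7 negative and called none of them (0.00% and 0.00590% of tested genes passed). With 1 library in a group, that library is assumed to vary as the other group does. An exact permutation test of 2 against 2 libraries cannot go below p = 0.333, two-sided.

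**Figure D2:**
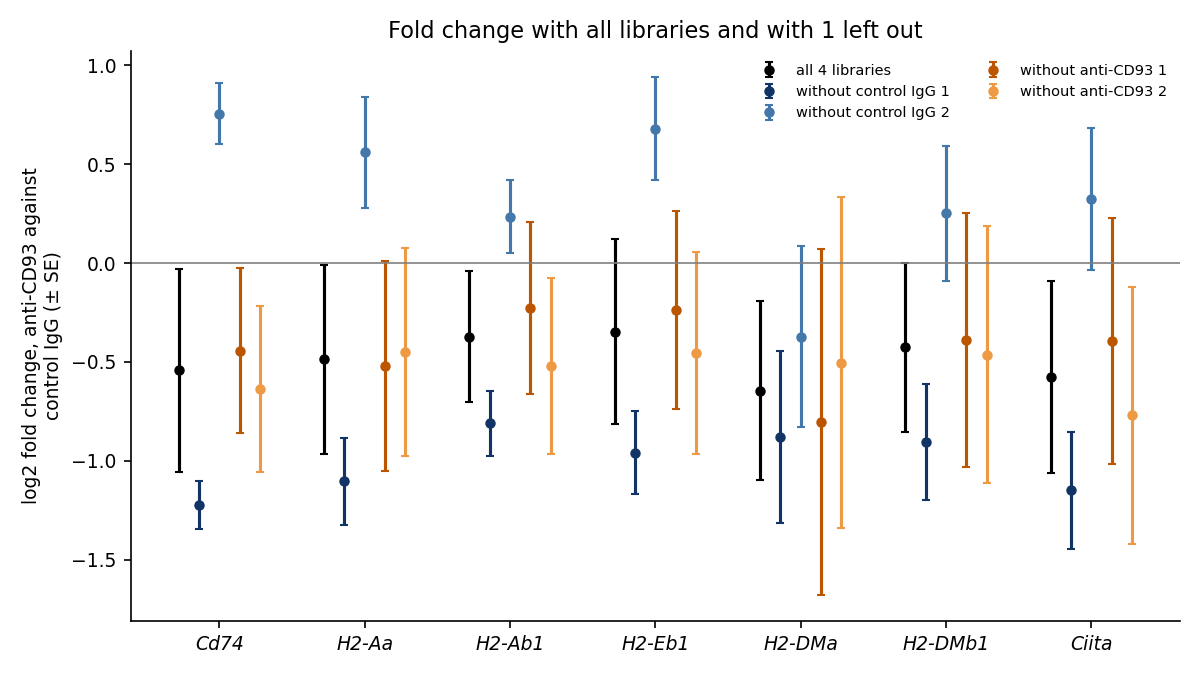
Log2 fold change of each member, anti-CD93 against control IgG (y axis, bars are ± SE), with all 4 libraries (black) and with 1 library left out (colours). Without control IgG 2 (light blue) 6 of the 7 points lie above 0, from 0.23 to 0.76, and without control IgG 1 (dark blue) all 7 lie at -0.81 or lower.

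For 6 of the 7 genes, all but H2-DMa, the log2 difference between the 2 control libraries was larger than the fitted change with treatment. This follows from their order, with both anti-CD93 libraries between the controls, and is no separate result. Control IgG 2 exceeded control IgG 1 by 3.95-fold for Cd74, 3.17-fold for H2-Aa, 3.12-fold for H2-Eb1, 2.78-fold for Ciita, 2.24-fold for H2-DMb1 and 2.06-fold for H2-Ab1, and by 1.42-fold for H2-DMa, a log2 difference of 0.51 beside its treatment change of -0.64. A rise of at least 2-fold between these libraries was seen in 7.72% of tested genes. A rise as large as that of Cd74 was seen in 1.71% of them, and as large as that of H2-DMa in 21.7%. All 7 members had their highest level in control IgG 2, as did 38.7% of tested genes. Anti-CD93 2 over anti-CD93 1 gave a ratio of 1.13 for Cd74, 0.944 for H2-Aa, 1.22 for H2-Ab1, 1.15 for H2-Eb1, 0.808 for H2-DMa, 1.05 for H2-DMb1 and 1.29 for Ciita. On the log2 scale each of these was nearer to 0 than the difference between the controls, least so for H2-DMa, at -0.31 against 0.51. For the 6 genes other than H2-DMa this too follows from the order of the libraries. With 1 library on each side, the difference between the controls has no replicate check.

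**Figure D3:**
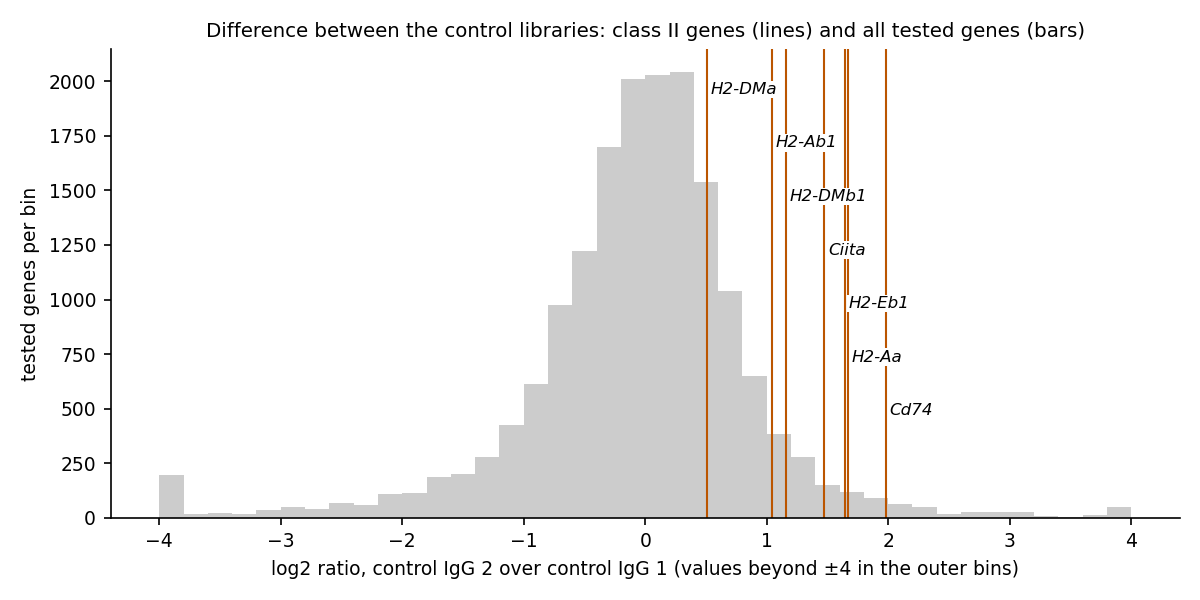
Log2 ratio of control IgG 2 over control IgG 1 (x axis) for all 16945 tested genes (grey bars, genes per bin on the y axis) and for the 7 members (labelled lines); the outermost bars also hold all values beyond the axis. Cd74 lies at 1.98 and H2-DMa at 0.51, and 6 of the 7 lines lie above 1.

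Per length of exon, the order was Cd74 first with a mean of 32.7 CPM per kb over the libraries, then H2-Ab1 with 11.3, H2-Eb1 with 6.93, H2-DMb1 with 3.68, H2-Aa with 3.02, H2-DMa with 0.820 and Ciita with 0.686. Each neighbour in this order held its place within all 4 libraries, except H2-DMa and Ciita, whose order held in 2 of the 4. Across libraries the ranges of neighbours overlapped, except that H2-Aa, at 1.70 to 5.38 CPM per kb, lay above H2-DMa, at 0.569 to 1.18, throughout. The class I heavy chain gene H2-K1 was 26.9, 18.2, 25.0 and 19.2 times the level of H2-Ab1 per kb. Lengths were summed over all annotated exons of a gene, 3798 bases for H2-Aa and 1679 for Cd74, and these need not all be used.

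**Figure D4:**
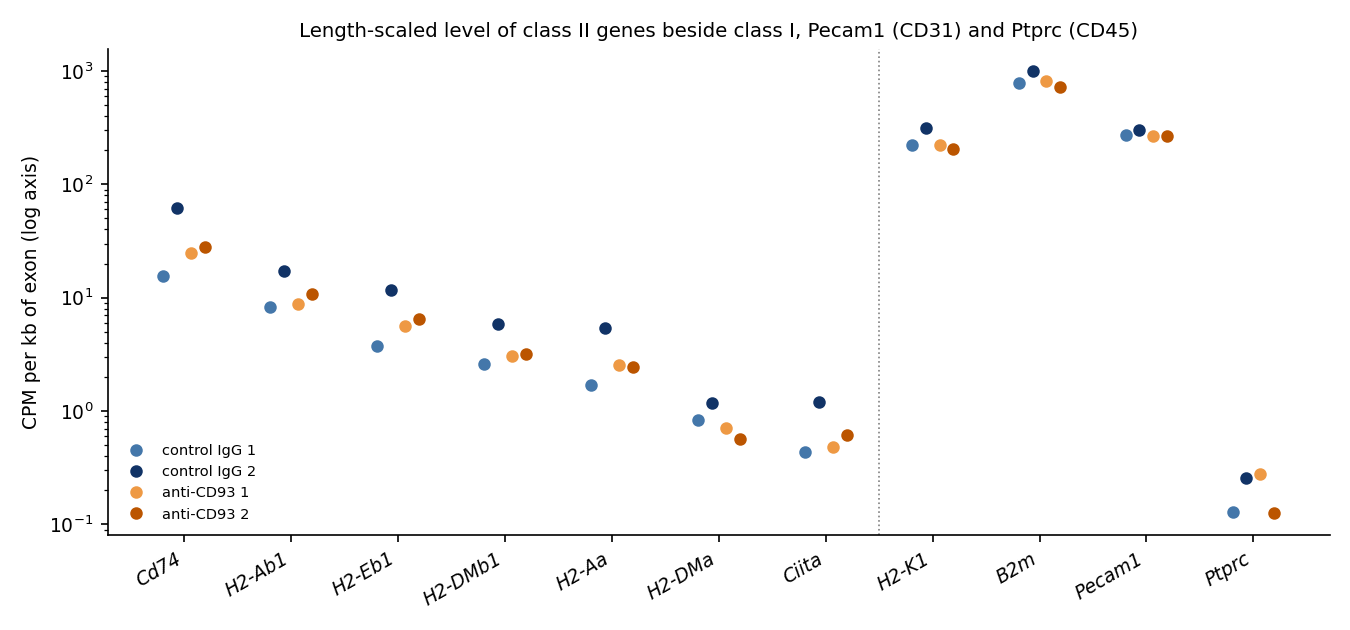
CPM per kb of exon (y axis, log scale) of the 7 members in order of their mean, and of H2-K1, B2m, Pecam1 and Ptprc, in the 4 libraries (colours). Cd74 lies between 15.7 and 62.0 CPM per kb, below Pecam1 and above Ptprc in every library.

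The members did not keep a constant ratio. Cd74 per kb was 1.89 times H2-Ab1 in control IgG 1 and 3.61 times in control IgG 2, with 2.81 and 2.62 in the anti-CD93 libraries. The share of H2-Aa to H2-Ab1 was 0.204, 0.313, 0.290 and 0.225 per kb, and that of H2-Eb1 to H2-Ab1 was 0.454, 0.686, 0.636 and 0.603. Each of these 3 ratios was lowest in control IgG 1 and highest in control IgG 2, and between the controls H2-Ab1 differed least of the 4 genes and Cd74 most. H2-DMb1 stood to H2-DMa as 3.16, 4.97, 4.34 and 5.62 to 1, without that order.

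Class II genes outside the 7 were close to absent. H2-Ob, the beta chain of the DM inhibitor H2-DO, had 9, 10, 4 and 12 reads, and its log2 fold change was -0.73 (SE 0.90, adjusted p = 0.859 by edgeR). The second DM beta gene H2-DMb2 had 4, 7, 6 and 4 reads. H2-Oa, H2-Eb2 and H2-Ea had 2, 4 and 7 reads in control IgG 2 and 0 in each of the other libraries, where a count of 0 allows up to 0.169 to 0.245 CPM by counting error. H2-Ea, defective in this strain, thus reached 0.723 CPM per kb in control IgG 2. The sensory receptor genes were at 0.0596 CPM per kb in this library and 0.00866 to 0.00936 in the others. The rise of Ciita between the controls was from 0.436 to 1.21 CPM per kb and that of Cd74 from 15.7 to 62.0. Whether reads of this kind entered the member counts of control IgG 2 was not tested.

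Of the 7 genes for the factors on which CIITA assembles, 1 had the order of the class II genes, beside 11.9% of tested genes. None of the 7 passed, with 4 below and 3 above 0 and a median of -0.051. Rfx5, the DNA-binding RFX subunit, was at 12.2, 17.7, 11.9 and 11.3 CPM (log2 fold change -0.35, SE 0.28). Rfxap was at 18.8, 27.8, 21.7 and 21.9 CPM and was the one with that order, while Rfxank was at 6.04, 7.07, 7.23 and 6.54 CPM. Of the NF-Y genes, Nfya was at 82.4, 62.7, 63.3 and 76.9 CPM, Nfyb at 41.5, 31.0, 40.9 and 44.3 CPM and Nfyc at 29.4, 34.4, 26.7 and 23.8 CPM. Creb1 was at 100.4, 73.9, 100.9 and 102 CPM. Nfya, Nfyb and Creb1 were lowest in control IgG 2, opposite to Ciita and its targets. Rfx5, Rfxap and Nfyc were highest in it, as Ciita was and as were 38.7% of tested genes. The log2 fold changes were -0.093 for Rfxap, 0.075 for Rfxank, -0.051 for Nfya, 0.23 for Nfyb, -0.33 for Nfyc and 0.22 for Creb1, with adjusted p from 0.812 to 0.962 over the 7 by edgeR. Without control IgG 2 none passed and the median was 0.014, and without control IgG 1 Nfyb and Creb1 passed as higher, each at 0.46, as did 14.1% of all tested genes.

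Of the 8 tested genes of the interferon-gamma route to CIITA none passed, with 6 below and 2 above 0 and a median log2 change of -0.11. Among its kinases, Jak1 was at 601, 658, 532 and 553 CPM and Jak2 at 223, 167, 202 and 203 CPM. Irf1, the interferon-induced activator of Ciita, was at 88.9, 122, 75.9 and 86.4 CPM (log2 fold change -0.38, SE 0.21), highest in control IgG 2 as Ciita was. Both anti-CD93 libraries lay below both controls for Irf1, as in 19.7% of tested genes. Socs1, a feedback inhibitor of the route, was at 2.94, 5.57, 2.49 and 3.56 CPM, below Ciita in every library before scaling by length. Per kb, Socs1 was above Ciita in every library, at 1.01, 1.91, 0.855 and 1.22 against 0.436, 1.21, 0.480 and 0.617. Ifngr2 was the only gene of the 8 with the order of the class II genes, which 11.9% of tested genes had. The summed level of the 8 was 1244, 1297, 1152 and 1166 CPM, a narrower range in fold than that of the class II sum. Their median was -0.13 without control IgG 2.

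Peptide processing genes showed no common direction, with 0 of 7 tested past the threshold, 4 below and 3 above 0. Ctss, the cathepsin that trims the invariant chain in antigen-presenting cells, was at 7.18, 11.5, 14.4 and 14.8 CPM (log2 fold change 0.66, SE 0.30, adjusted p = 0.812 by edgeR). Both anti-CD93 libraries were above both controls for Ctss, unlike for Cd74, its substrate. The groups did not overlap, in either direction, in 39.8% of tested genes. Ctsb was at 641, 788, 595 and 543 CPM and Lgmn, an asparaginyl endopeptidase, at 236, 230, 220 and 200 CPM. Marchf1, a ubiquitin ligase that removes class II from the surface, had 4, 18, 4 and 4 reads.

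Of the class I genes and their regulator Nlrc5, 0 of 10 tested had the class II order, beside 11.9% of all tested genes. All 10 had fold changes below 0 and none passed with all libraries, with a median of -0.38. The median was -0.065 without control IgG 2 and -0.63 without control IgG 1, against 0.32 and -0.96 for the class II members. H2-D1 was at 934, 1512, 910 and 915 CPM, B2m at 672, 855, 700 and 617 CPM and the immunoproteasome gene Psmb10 at 14.4, 36.8, 13.5 and 13.1 CPM. Their sum in control IgG 2 was 1.47-fold that in control IgG 1, against 2.98-fold for the class II sum, and the anti-CD93 sums were close to that of control IgG 1. Of the co-stimulatory genes, Cd40 was at 15.2, 22.8, 10.2 and 10.7 CPM (log2 fold change -0.86, SE 0.28, adjusted p = 0.812 by edgeR) and Cd274, the gene of PD-L1, at 6.12, 9.74, 6.04 and 7.27 CPM. All 4 tested co-stimulatory genes were below 0, with a median of -0.76, and 2 of the 4 were without control IgG 2. Cd80 and Cd86, the ligands of CD28, were under 2 CPM in every library, with 6, 8, 9 and 3 reads and 4, 17, 5 and 11 reads.

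Leukocyte genes were also present and several took the order of the class II genes. Of the 10 pan-leukocyte genes, 6 did so, beside 11.9% of all tested genes: Laptm5, Coro1a, Cd52, Cd53, Rac2 and Fcer1g. Fcer1g, a signalling chain of Fc receptors, was at 0.897, 7.07, 2.20 and 1.53 CPM, and Coro1a, an actin regulator of leukocytes, at 2.20, 7.39, 3.56 and 2.83 CPM. Ptprc did not take this order, being as high in anti-CD93 1 as in control IgG 2. The list summed to 145 and 199 CPM in the controls and 172 and 146 CPM with anti-CD93, most of it from Lcp1 at 120, 149, 136 and 118 CPM, with Arhgdib next at 9.46, 10.8, 11.9 and 8.21 CPM. Tyrobp, an adaptor of myeloid receptors, was at 0.979, 2.14, 0.452 and 0.436 CPM (log2 fold change -1.77, SE 0.77, adjusted p = 0.812 by edgeR). None of the 10 passed with all libraries, where the median log2 change was -0.095. The median was 0.60 without control IgG 2, when 9 of the 10 were above 0, beside 8573 of all 16945 tested genes. Per kb, Cd74 was 121, 241, 89.7 and 222 times the level of Ptprc. Much of this comes from the annotated exon lengths, 18313 bases for Ptprc and 1679 for Cd74. Without scaling by length, Cd74 was at 26.3, 104, 41.8 and 47.4 CPM and Ptprc at 2.37, 4.71, 5.08 and 2.32 CPM. Fcer1g and Coro1a were picked after their order was seen.

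Among markers of cells that read class II constitutively, 4 of 10 tested macrophage genes had the class II order, namely Csf1r, C1qb, C1qc and Ms4a7. Of all tested genes 11.9% had it. The macrophage list summed to 44.9 and 63.6 CPM in the controls and 76.9 and 64.5 CPM with anti-CD93. Highest in mean CPM were Mrc1 at 13.1, 10.9, 24.2 and 17.7 CPM and Lyz2 at 7.67, 16.3, 18.1 and 14.9 CPM. Both were higher in anti-CD93 1 than in either control. None passed with all libraries, where the median log2 change of the list was 0.31. The median was 1.12 without control IgG 2, when 9 of the 10 were above 0, beside 8573 of all 16945 tested genes. C1qc, a complement subunit picked after its order was seen, was at 0.734, 4.82, 2.54 and 3.34 CPM. Of the 4 tested dendritic cell genes Itgax alone, at 0.408, 3.10, 1.86 and 1.31 CPM, had the class II order. Flt3 and Xcr1, which were not tested, were at 0 in control IgG 1 and anti-CD93 2. The dendritic list summed to 98.9 and 123 CPM in the controls and 91.4 and 91.8 CPM with anti-CD93. Most of that sum came from Zbtb46, which endothelium also reads, at 80.2, 97.5, 67.3 and 68.6 CPM, and from Clec9a at 15.8, 17.4, 19.8 and 19.3 CPM.

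B cell genes summed to 2.86 and 5.67 CPM in the controls and 1.36 and 1.53 CPM with anti-CD93, with Ms4a1 and Cd79b at 0 in every library but control IgG 2, where they had 5 and 3 reads. Cd79a, a chain of the B cell receptor, had 8, 7, 3 and 7 reads. Cr2, the complement receptor gene, was the highest of them before scaling by length, at 0.897, 2.14, 0.734 and 0.872 CPM. Per kb, Cd79a was above Cr2 in every library. T and NK cell genes summed to 2.45 and 4.82 CPM in the controls and 3.11 and 1.38 CPM with anti-CD93. Lymphatic endothelium is a subset known to carry class II. Of its list, Flt4 was at 451, 479, 430 and 414 CPM, far above Prox1 at 43.2, 30.6, 23.1 and 42.0 CPM and Mmrn1 at 112, 62.8, 65.4 and 81.2 CPM. Whether Flt4 was read in lymphatic cells alone was not tested. Of the 6 genes of this list 0 had the class II order, beside 11.9% of all tested genes. Tumour epithelial genes summed to 1643 and 2418 CPM in the controls and 2326 and 1931 CPM with anti-CD93. Of these genes 4 of 6, all keratins, had the class II order, beside 11.9% of all tested genes. The other genes of the list, Epcam at 21.7, 23.4, 34.1 and 41.1 CPM (log2 fold change 0.74, SE 0.21, adjusted p = 0.812 by edgeR) and Cdh1 at 216, 210, 351 and 290 CPM (0.59, SE 0.18), were above both controls in both anti-CD93 libraries. The groups did not overlap, in either direction, in 39.8% of tested genes. Krt8, the most abundant, was at 617, 937, 855 and 712 CPM. Without control IgG 2 all 6 genes of the list were above 0 with a median of 0.39, beside 8573 of all 16945 tested genes. The part of these cell types in the class II levels was not tested.

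**Figure D5:**
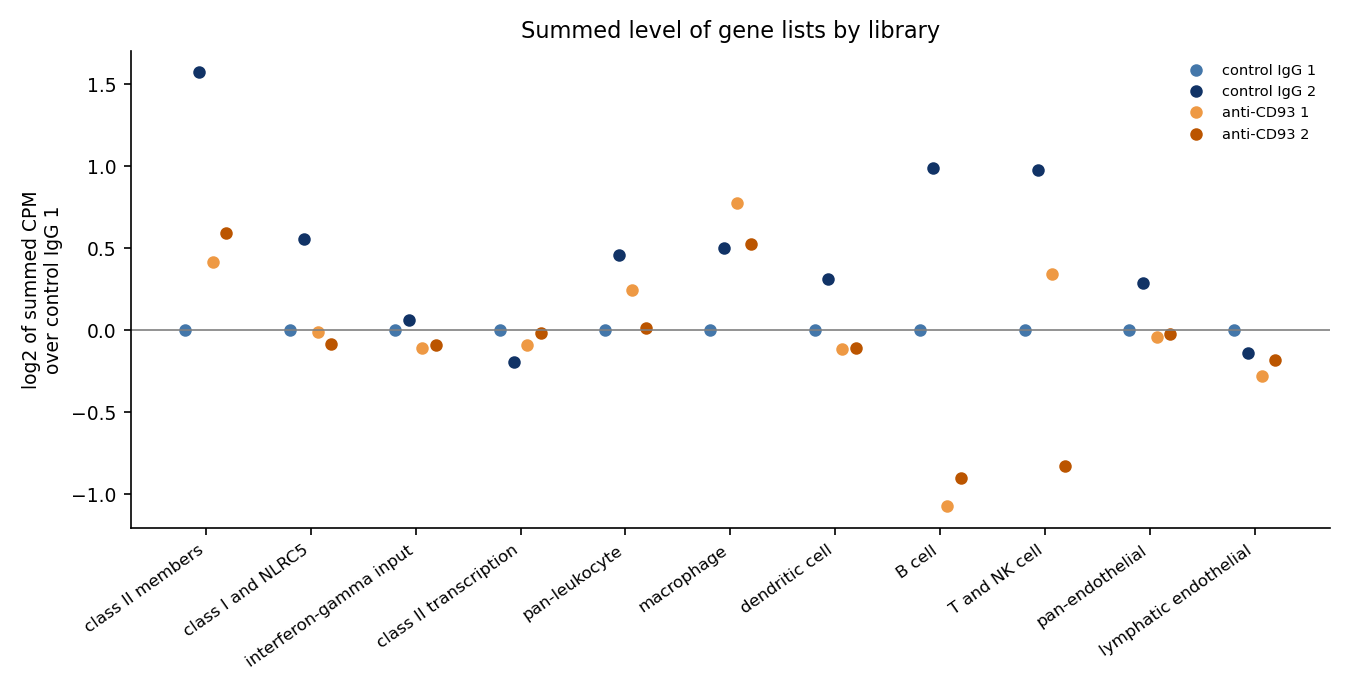
Log2 of the summed CPM of each gene list (x axis) in each library over that in control IgG 1 (y axis, which sets control IgG 1 at 0). Of the lists plotted, the class II sum in control IgG 2 is the highest point, at 2.98-fold, and macrophage genes are highest in anti-CD93 1.

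The mean profile of the 7 members over the 4 libraries was compared with those of other well-read genes. Genes with symbols that start with Gm or end in Rik were left out, as were the members. Among 10223 genes with a mean of at least 5 CPM, the 5 at the smallest distance in centred log2 CPM were Wdr90, Mief2, Pdgfa, Bscl2 and Clpp, at distances of 0.024 to 0.098. The members themselves lay 0.14 (H2-DMb1) to 0.72 (H2-DMa) from their own mean. Pdgfa, a growth factor gene, was at 13.7, 35.8, 15.9 and 17.3 CPM, and Clpp, a mitochondrial protease gene, at 7.02, 16.7, 8.81 and 9.08 CPM. The distance describes levels in these 4 libraries only.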

How the data were processed

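RNA was measured in 4 libraries, 2 per group. The deposited values are raw counts, made by gene name with featureCounts 2.0.1 from GENCODE vM25 (GRCm38), per the file headers. The command sets no paired-end, strand or multimapping option, although the kit marks strand, so mates were counted singly. STAR 2.7.5b and DESeq2 1.28.1 are named in the submitters' processing notes. The other table, labelled as normalized, has identical counts (0 of 221468 cells differed). Genes were filtered by filterByExpr (minimum count 10), which left 16945, scaled by TMM and fitted in R 4.3.3 with edgeR 4.0.16 (robust quasi-likelihood, group only, Benjamini-Hochberg over all tested genes), a procedure tested on simulated data. DESeq2 1.42.0 and limma-voom (limma 3.58.1) were alternatives. The members, lists, alternatives and promoter letters were chosen with earlier results of these data known. Medians of lists with 1 library left out were added after seeing the data. The genes named were the 7 members, the class II and class II transcription lists, Ptprc, Pecam1 and the 5 nearest genes. Of each other list, the 2 genes with the highest mean CPM and the 1 with the smallest p were named. Not all genes named are described. C1qc, Fcer1g, Coro1a, Itgax, Prox1, Ifngr2, Socs1, Cdh1, H2-K1 and genes given by reads or zeros were picked after their values were seen. Mesothelial, fibroblast, pericyte, pan-endothelial and venous lists had 0 called genes and summed to 335 to 498, 1761 to 2835, 1128 to 1342, 8031 to 10107 and 1663 to 2419 CPM. Shared 50-base words came from GENCODE vM21 transcripts. Depth and 2 libraries per group limit the precision. Intervals and floors (3 reads) cover counting error only.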

Additional observations from a re-analysis of the deposited data

How the results depend on the processing

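The fold changes of the 7 members kept their sign and stayed past no threshold under every other scaling, count filter and dispersion setting, by DESeq2, by limma-voom and with halved counts; H2-DMa gave no value at a minimum count of 50. Of 97 such values, the 6 that turned sign and the 6 that passed all came from leaving out a control library. Leaving out each library in turn, the log2 fold change ran from -1.22 to 0.76 for Cd74, -1.10 to 0.56 for H2-Aa, -0.81 to 0.23 for H2-Ab1, -0.96 to 0.68 for H2-Eb1, -0.91 to 0.25 for H2-DMb1 and -1.15 to 0.32 for Ciita, the lowest without control IgG 1 and the highest without control IgG 2. It ran from -0.88 to -0.37 for H2-DMa. By limma-voom it shrank to -0.20 for Cd74, -0.20 for H2-Aa and -0.078 for H2-Eb1; the cause was not tested. Members called ran from 0 to 6 and genes called from 0 to 4549 over these fits. Genes called were 48 with no count filter, 4 by DESeq2 and 0 by edgeR as reported. The replicate number is shared by label only: with the replicate block edgeR called 14 genes and 0 members, and Cd74 was at -0.25; the deviations of same-numbered libraries correlated at -0.016 over genes. Rfxap ran from -0.35 to 0.21, Rfxank from -0.035 to 0.19 and Nfya from -0.24 to 0.16 with 1 library left out. Member reads of 27 to 972 per library and 2 libraries per group limit what can be seen.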
